A study of Mus musculus with 26 samples.

Results

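Histone genes were followed in whole-testis RNA-seq of adult mice of 3 genotypes. They were taken as the protein-coding genes whose symbols follow the current clustered histone nomenclature (*H1f*, *H2ac*, *H2bc*, *H3c* and *H4c* followed by a number). This gave 69 genes of the 51124 in the table, or of 21789 protein-coding ones, with 54 on chromosome 13, 10 on chromosome 3 and the others on chromosomes 6, 11 and 15. Wild-type (WT) testes gave libraries N1 and N2. Testes of *10xPerf* mice, with 10 perfectly complementary sites for the piRNA piR-A in the 3′ untranslated region of *Ythdc2*, gave N3 and N4. Testes of *10xBulge* mice, whose 10 sites carry mismatches to piRNA positions 10 and 11, gave N5 and N6. Both knock-ins were made in single-cell B6D2F1/J hybrid embryos and kept as homozygous lines, the insertion replaces a short deleted stretch of the last exon, each library came from a different animal, and the strain of the WT animals and the exact ages are not given in the sources used here. RNA was depleted of ribosomal RNA, so transcripts without a poly(A) tail could also be read. The deposited values are normalized counts per gene. Their sums were between 39754103 and 59804251 per library, and the 69 genes took between 0.344% (N3) and 0.598% (N1) of them.

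Histones package DNA into nucleosomes, with H2A, H2B, H3 and H4 in the core and H1 on the linker. The replication-dependent genes lie in clusters, are transcribed in S phase, and their mRNAs end in a conserved stem-loop rather than a poly(A) tail. In the testis, variants take over part of this supply: H1t (*H1f6*), TH2A (*H2ac1*) and TH2B (*H2bc1*) are made in spermatocytes, and H1T2 (*H1f7*) and HILS1 (*H1f9*) are linker histones of spermatids, in which most histones are later exchanged for transition proteins and protamines. The genes were therefore set out as 4 testis variants (*H1f6*, *H1f7*, *H2ac1*, *H2bc1*), 5 replication-dependent H1 genes (*H1f1* to *H1f5*), 4 other H1 genes (*H1f0*, *H1f8*, *H1f9*, *H1f10*), and the replication-dependent H2A (16 genes), H2B (16), H3 (12) and H4 (12) genes.

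The 3′ stem-loop was looked for in every gene. On GRCm38, the 16-base consensus (GG, 2 free bases, CTTTT, 1 free base, AG, 2 free bases and CC) was searched on the transcribed strand within 150 bases after the stop codon. They were present in 60 of the 69 genes and in 6 of 21604 other protein-coding genes (0.028%), of which *H2afx*, *H2bfm*, *Hist3h2a*, *Hist3h2ba* and *Hist4h4* are histone genes outside the naming rule and *Lrrc75b* is not. The loop began between 21 and 58 bases after the stop codon, with a median of 30. *H1f6*, *H2ac1* and *H2bc1* have it, as do *H1f1* to *H1f5* and 52 of the 56 replication-dependent core histone genes. The testis gene *H1f7* and the other H1 genes *H1f0*, *H1f8*, *H1f9* and *H1f10* have no match in this window, and neither do *H2ac22*, *H2bc21*, *H3c8* and *H4c1*. The lines below show the loop of the testis variants beside a replication-dependent gene of the same class and an H4 gene, 5′ to 3′, with the stem in capitals and the loop and flanks in lower case.
H1f6: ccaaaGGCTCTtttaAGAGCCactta
H1f1: ccaacGGCTCTtttcAGAGCCaccaa
H2ac1: aaaaaGGCTCTtttcAGAGCCacctt
H2ac18: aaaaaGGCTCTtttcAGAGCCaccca
H2bc1: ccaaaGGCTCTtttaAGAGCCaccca
H2bc7: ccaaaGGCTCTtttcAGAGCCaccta
H4c3: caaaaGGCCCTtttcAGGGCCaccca
The stem and loop of *H1f6* lie at chr13:23696525-23696540, those of *H2ac1* at chr13:23934891-23934906 and those of *H2bc1* at chr13:23933730-23933745. *H2ac1* has the commonest form, shared by 39 genes, while *H1f6* and *H2bc1* are among 9 genes with A as the last loop base. The 11 H4 genes with a loop all have stem letters other than those of the remaining classes, and 7 of them are written like *H4c3*.

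Promoters of 62 of the 69 genes were in the RefSeq table for GRCm38 (250 bases before to 50 after the start). The TATAAA core was present, on either strand, in 34 of them (54.8%) against 13.5% of 32788 other promoters, and CCAAT in 51 (82.3%) against 37.3%. TGACGTNA, the core bound by cAMP-responsive factors, was present in 4 (6.45%) against 2.93%. Among the 4, *H2ac11* and *H2bc11* are divergent genes counted for the same site. The TATAAA and CCAAT counts also hold divergent pairs with the same sites, such as *H2ac22* and *H2bc22*. They are counts of genes and not of independent sites. *H1f6* and *H1f1* to *H1f5* all have CCAAT on the gene's strand between 51 and 65 bases before the start. This position is not particular to them: *H3c2* (51), *H3c10* (53) and *H2bc14* (55) are among the core histone genes that have it. Their log2 ratios of N5 to N6 were 0.33, 0.20 and 0.48. The 6 genes were picked because their levels took nearly the same order over the 6 libraries, and a link to the motif was not tested. Their stretches are shown with CCAAT in capitals.
H1f6: cctggggatgcaCCAATcacagcgcgccct
H1f1: cgttagcattcaCCAATcacagcacagcac
H1f2: gccgctggagcaCCAATcagcgcgcgcctg
H1f3: cggcgcagggaaCCAATcaccacgcagctt
H1f4: ctggacagcgcaCCAATcacggcgcagctc
H1f5: ttggccgctccaCCAATcacagcccagcac
The *H1f6* stretch is chr13:23695734-23695763. *H2ac1* and *H2bc1* are transcribed away from each other with 305 bases between the annotated genes, and each has TATAAA in that interval, shown in capitals on the gene's own strand. That of *H2ac1* lies 32 bases before its start (chr13:23934393-23934422), and that of *H2bc1* lies 94 bases before its start (chr13:23934233-23934262). Both starts are from RefSeq. That of *H2bc1* is also the start of its annotated gene, which ends at the stop codon, while that of *H2ac1* lies upstream of its annotated gene. The distances may thus count from unlike points and were not compared.
H2ac1: ctgccattagacTATAAAtaggcgtggtca
H2bc1: aatgtccacgccTATAAAtaccccgcttct
No match to the 3 motifs was found in the *H1f7* promoter, and the table holds none for *H1f9*.

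Of the 69 genes, 65 reached 10 normalized counts in 2 or more libraries and were tested, with 23782 genes tested in all. *H1f8*, *H2ac23*, *H2bc23* and *H3c14* did not, and *H3c14* is listed at 0 in every library. *H1f8*, the linker histone of oocytes, had between 0 and 4.88 normalized counts. Differences between genotypes were tested with limma on log2(value + 1) and called at a Benjamini-Hochberg adjusted p under 0.1 over all genes tested. Fold changes are given as log2 on this scale with their standard errors (±), so the change of genes with low values is understated. An exact permutation of 2 against 2 libraries gives no p below 0.33.

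The 2 linker histone genes of spermatids were almost lost from *10xBulge* testes. *H1f7* (ENSMUSG00000048077.7, chr15:98255986-98257293 on GRCm38), which encodes H1T2, had 20792 and 16036 normalized counts in WT, 17218 and 19724 in *10xPerf*, while N5 and N6 of *10xBulge* had 69.3 and 26.3. The log2 fold change in *10xBulge* was -8.70 ± 0.49 against WT (limma adjusted p = 5.57e-06) and -8.72 ± 0.49 against *10xPerf* (adjusted p = 4.68e-06), and 0.01 ± 0.49 in *10xPerf* against WT (adjusted p = 0.996). *H1f9* (ENSMUSG00000038994.7, chr11:94967593-94968456), which encodes HILS1, had 22944 and 13058 normalized counts in WT, 13180 and 17707 in *10xPerf*, with 411 and 97.1 left in *10xBulge*. It fell by 6.43 ± 0.64 on the log2 scale against WT (limma adjusted p = 7.61e-05) and was at -6.25 ± 0.64 against *10xPerf* (adjusted p = 8.47e-05). Both *10xBulge* libraries lay below all 4 others for both genes, while WT and *10xPerf* overlapped. These calls held without any single library, with *H1f7* between -9.38 and -8.02 against WT and *H1f9* between -7.46 and -5.39.

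Other genes of spermatids were low in the same libraries. The summed level of 10 spermatid markers, all of which fell, was between 499320 and 691383 normalized counts in WT and *10xPerf* and 1739 and 1053 in N5 and N6. In whole testis, fewer spermatids and less RNA per spermatid cannot be told apart. Of 26 tested histone variant genes outside the naming rule, 13 fell and 0 rose in *10xBulge* against WT, where limma called 23% of all genes tested lower and 11.4% higher, with a median log2 fold change of -1.31 beside -0.03 over all genes tested. *H2al2a*, an H2A variant of condensing spermatids, had 6834 and 3842 normalized counts in WT, 4672 and 6396 in *10xPerf*, but 9.15 and 4.83 in *10xBulge* (log2 fold change -9.38 ± 0.47, limma adjusted p = 4.39e-06). *H2bl1*, an H2B variant of the same stage, had between 4537 and 5518 in WT and *10xPerf*, and 33.7 and 26.1 in *10xBulge* (log2 fold change -7.23 ± 0.38, limma adjusted p = 4.39e-06). Of 16 genes that act in the removal of histones, 9 fell and 1 rose, against the same 23% and 11.4% of all genes. This list shares genes with the 10 spermatid markers, so the 2 counts are not independent. The transition protein gene *Tnp1*, which is in both, fell by 9.89 ± 0.42 (limma adjusted p = 3.77e-06). In *10xPerf* against WT, none of the genes of these 3 lists passed the threshold in limma, with 2 histone variant genes at an unadjusted p under 0.05 and 0 genes of the other lists.

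**Figure D1:**
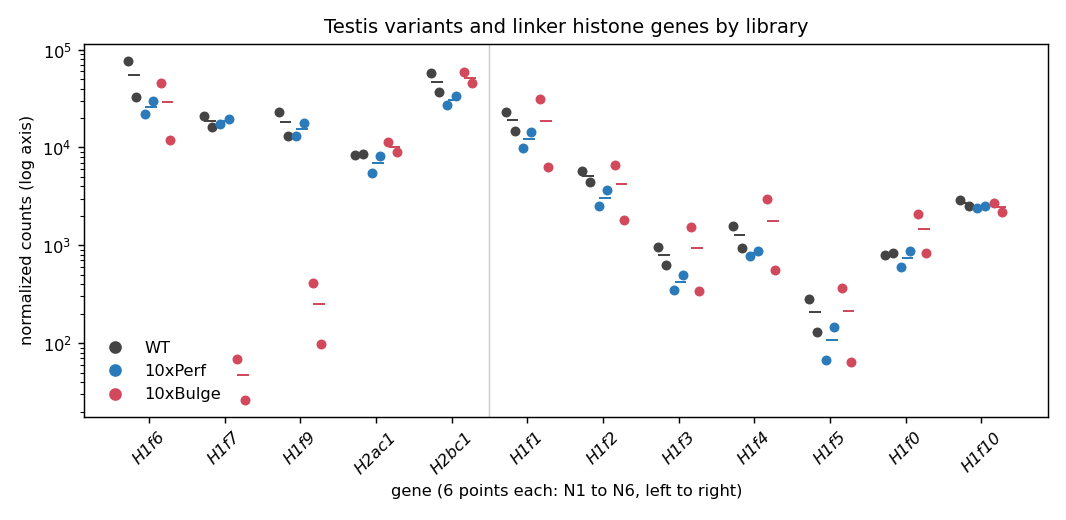
Normalized counts (log axis) of 12 histone genes in each of the 6 libraries, N1 to N6 from left to right, with the mean of each genotype as a short line. *H1f7* and *H1f9* are at 69.3, 26.3, 411 and 97.1 in *10xBulge* and at 13058 or more in the 4 other libraries. None of the 10 other genes shown has both *10xBulge* libraries below the 4 others, while for *H2ac1* both lie above them.

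The core histone variants of spermatocytes were called in neither line against WT. *H2ac1* (ENSMUSG00000060081.2, chr13:23934462-23934851), encoding TH2A, had 8307 and 8536 normalized counts in WT, 5524 and 8190 in *10xPerf*, and 11384 and 9047 in *10xBulge*. The log2 fold change in *10xBulge* against WT was 0.27 ± 0.40 (95% confidence interval -0.64 to 1.18, limma adjusted p = 0.665), although both *10xBulge* values were above all others. *H2bc1* (ENSMUSG00000050799.4, chr13:23933773-23934156), encoding TH2B, had 57007 and 36783 in WT, 27096 and 33907 in *10xPerf*, then 58295 and 45041 in *10xBulge*, with overlap between WT and *10xBulge* and *10xPerf* below both. Against WT it was at 0.16 ± 0.45 in *10xBulge* (interval -0.85 to 1.18, limma adjusted p = 0.826) and -0.60 ± 0.45 in *10xPerf* (adjusted p = 0.853). *H2ac1* in *10xPerf* was at -0.32 ± 0.40 (limma adjusted p = 0.875). Between *10xBulge* and *10xPerf* the log2 fold change was 0.59 ± 0.40 for *H2ac1* (limma adjusted p = 0.306) and 0.76 ± 0.45 for *H2bc1* (adjusted p = 0.242). Both were called higher in *10xBulge* in that comparison when scaled by library totals, at 0.84 (limma adjusted p = 0.0739) and 1.01 (adjusted p = 0.0646).

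*H1f6* (ENSMUSG00000036211.5, chr13:23695814-23696725), encoding H1t, differed between the 2 *10xBulge* animals by more (1.95 as a log2 ratio) than *10xBulge* did from WT. It had 76519 and 32908 normalized counts in WT, 21904 and 30120 in *10xPerf*, whereas N5 and N6 had 45755 and 11841. The log2 fold change in *10xBulge* against WT was -1.11 ± 0.68 (95% confidence interval -2.64 to 0.43, limma adjusted p = 0.263), and the *10xPerf* value was -0.97 ± 0.68 (adjusted p = 0.853). Without N5 the *10xBulge* value was -2.08 with a limma adjusted p of 0.0178, and without N6 it was -0.13. With N6 alone in its group, that p rests on the spread within WT and *10xPerf* and leaves out the gap between N5 and N6.

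Within each library, the testis variants were set against the summed replication-dependent genes of the same class, a ratio that does not depend on library scaling. The log2 ratio of *H1f7* to the sum of *H1f1* to *H1f5* was between -0.61 and 0.34 in WT and *10xPerf*, and -9.27 and -8.44 in *10xBulge*. That of *H1f6* was 1.27 and 0.65 in WT, 0.69 and 0.63 in *10xPerf*, and 0.10 and 0.38 in *10xBulge*, so that the *10xBulge* pair lay below the other libraries, with a mean difference from WT of -0.72 (exact permutation p = 0.33, two-sided, the smallest possible here). For *H2ac1* over the H2A sum the ratio was -1.51 and -0.62 in WT, -1.23 and -0.62 in *10xPerf*, and -0.21 and -0.20 in *10xBulge*, a difference from WT of 0.86 (exact permutation p = 0.33). Leaving out each library moved the difference from WT between -1.03 and -0.41 for *H1f6* and between 0.42 and 1.31 for *H2ac1*, both ends being reached by leaving out a WT library. *H2bc1* over the H2B sum stayed between 0.61 and 1.09 in the 6 libraries, with a difference of 0.12 (exact permutation p = 1.0).

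The H1 genes stood out by how far the 2 *10xBulge* animals differed. *H1f1* had 31266 normalized counts in N5 and 6337 in N6, against 23092 and 14832 in WT and 9878 and 14278 in *10xPerf*. *H1f2* had 6574 and 1811 in *10xBulge*, 5755 and 4423 in WT, and 2494 and 3641 in *10xPerf*. *H1f3* had 1554 and 338 in *10xBulge*, 970 and 636 in WT, and 348 and 501 in *10xPerf*. *H1f4* (3007 and 559) and *H1f5* (363 and 64.5) had the same order in *10xBulge*, with 1593 and 936, and 284 and 132, in WT and 785 and 865, and 67.1 and 148, in *10xPerf*. In all 5 genes N5 was the highest library and N6 the lowest, on both sides of WT. The log2 ratio of N5 to N6 was between 1.86 and 2.48 for *H1f1* to *H1f5*, and 1.95 for *H1f6*, 2.07 for *H1f9* and 1.36 for *H1f7*. Over all genes tested the median was 0.15, and 15.4% of genes had a ratio above 1. The medians of the replication-dependent H2A, H2B, H3 and H4 genes were -0.01, 0.22, 0.20 and 0.14, and 1 of their 53 tested members was above 1 (*H2bc4*, 1.22). *H1f0*, which accumulates in non-dividing cells, had 2103 and 840 normalized counts in N5 and N6, 791 and 841 in WT, and 596 and 871 in *10xPerf*. *H1f10*, a replication-independent linker histone, was the H1 gene that varied least, with 2705 and 2200 in *10xBulge*, 2917 and 2548 in WT, and 2399 and 2531 in *10xPerf*.

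The N5 and N6 testes also differed in other cell markers. The summed Leydig cell markers were 321963 in N5 and 155981 in N6, and the Sertoli cell markers 289975 and 140970, against no more than 92281 for either list in WT and *10xPerf*. Spermatocyte markers summed to 141444 and 94151, and spermatogonial markers to 23926 and 20302. The sum of all normalized counts was also higher in N5 (50081041) than in N6 (39754103). The part of these differences in the H1 ratios was not tested. With each library's trend with GC content removed, the N5 to N6 difference of *H1f1* to *H1f5* was between 1.33 and 3.25.

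**Figure D2:**
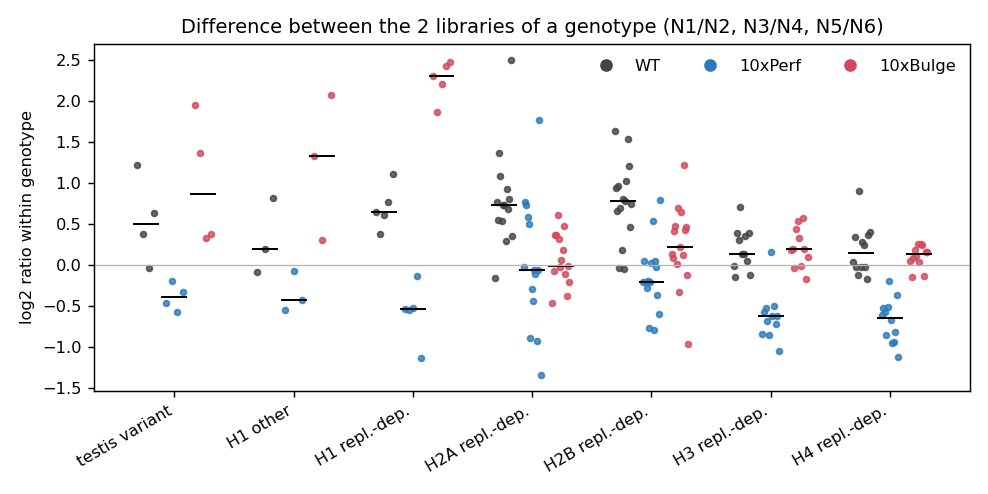
Log2 ratio between the 2 libraries of each genotype for the tested genes of each class, with the class median as a black line. *H2ac13*, listed at 0 in N2 and N4, is not drawn but is in the medians. The 5 replication-dependent (repl.-dep.) H1 genes are between 1.86 and 2.48 in *10xBulge*, apart from the core classes.

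The summed replication-dependent core histone genes, unlike the linker histones of spermatids, showed no called difference between *10xBulge* and WT. The H4 genes summed to 68361 and 55817 normalized counts in WT, 34488 and 54818 in *10xPerf*, and 65647 and 59262 in *10xBulge*. The H3 sum was 7016 and 5896 in WT, 3976 and 6113 in *10xPerf*, and 8539 and 7166 in *10xBulge*. The H2B sum was 37294 and 17227, 15847 and 18196, and 28501 and 23755 in the same order, and the H2A sum was 23687 and 13108, 12998 and 12610, and 13142 and 10390. Sums are given because near-identical copies share reads: 57 of the 69 genes share 100-base stretches with another annotated gene, and in 25 of them these are more than 50% of the transcript's stretches. Sharing with genes outside the sums remains. *Gm20634* is a partner of *H2ac18* (88.3% shared with any gene), *H2ac19* (100%), *H3c13* (77.1%) and *H3c15* (61.6%), and *H2af-ps2* of the first pair. *Gm42743* is the partner of *H2bc18* (45.4%), and *H2bc1*, left out of the H2B sum, shares 27.4% of its stretches, first with *H2bc11*. The H2A, H2B and H3 sums, and the ratios of *H2ac1* and *H2bc1* to their class sums, can therefore still depend on how reads were divided. Against WT, the log2 fold change of the sum in *10xBulge* was 0.01 for H4 (95% confidence interval -1.01 to 1.04, limma adjusted p = 0.988) and 0.28 for H3 (-0.63 to 1.20, adjusted p = 0.649). It was 0.04 for H2B (-1.04 to 1.11, limma adjusted p = 0.965) and -0.59 for H2A (-1.58 to 0.40, adjusted p = 0.352). The H1 sum was at -0.38 (-1.91 to 1.14, limma adjusted p = 0.716), and at -1.50 without N5 and 0.73 without N6. The value without N5 has an adjusted p of 0.0453, which rests on the spread within WT and *10xPerf* because N6 is then alone in its group. Leaving out each library moved the H2A sum between -1.02 and -0.17 and the H3 sum between 0.16 and 0.41. Differences smaller than these intervals could not be detected here.

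**Figure D3:**
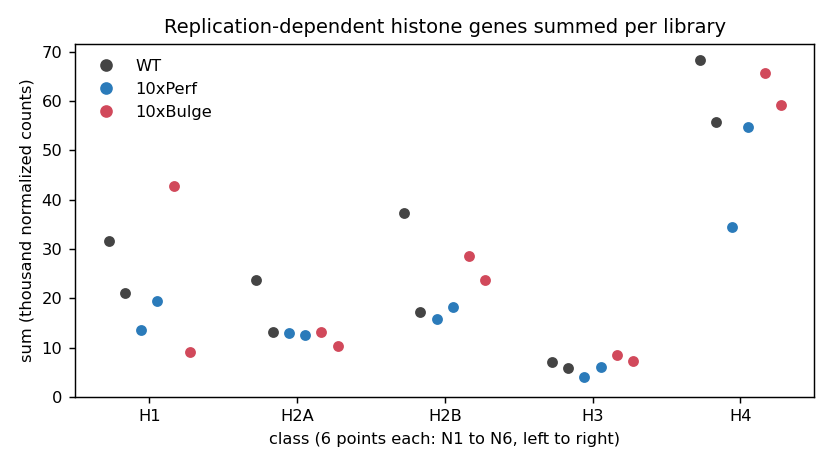
Summed normalized counts (in units of 1000, axis from 0) of the replication-dependent genes of each class in the 6 libraries, N1 to N6 from left to right. The *10xBulge* libraries lie within the WT range for H4 and above it for H3, and the H1 sum spans 9110 to 42763 in *10xBulge* alone.

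Gene by gene, 3 of the 65 tested histone genes were lower (4.62%) and 0 higher in *10xBulge* than in WT by limma, where 23% of all genes tested were lower and 11.4% higher. The median log2 fold change of the 65 was 0.16, and 0.47 without N1 and -0.13 without N2. With all 6 libraries, 4 genes had an unadjusted p under 0.05. The third gene that fell was *H2bc22*, a replication-dependent H2B gene, with 5110 and 2920 normalized counts in WT, 2417 and 2384 in *10xPerf*, and 1342 and 1156 in *10xBulge* (log2 fold change -1.63 ± 0.41, limma adjusted p = 0.0180). Without N1 it was at -1.23 with a limma adjusted p of 0.109. In 34.7% of its 100-base stretches *H2bc22* equals other annotated genes, first among them H2B copies. The highest copies of the core classes by mean were *H2ac18*, *H2bc11*, *H3c15* and *H4c3*. *H2ac18* had 11576 and 5465 normalized counts in WT, 7108 and 5018 in *10xPerf*, and 4689 and 3083 in *10xBulge*, where both libraries were below the others. *H4c3* had 17277 and 14550, 6509 and 12559, and 16324 and 13682 in the same order, with overlap between WT and *10xBulge*. *H3c15* had 1795 and 1098, 862 and 1557, and 2125 and 1465, and *H2bc11* had 11421 and 3677, 3847 and 4460, and 7189 and 6554.

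These counts move with scaling. By library totals, which shift the median of all genes from -0.03 to 0.36, 11 histone genes were higher and 3 lower in *10xBulge* than in WT, where 24.4% of all genes were higher and 20% lower. With GC trends removed, 7 were higher and 3 lower, against 19.9% and 24.3% of all genes. The 65 histone genes thus held no larger share of higher calls than all genes did in either setting. *H1f7*, *H1f9* and *H2bc22* were lower in both.

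In *10xPerf*, the H2B gene *H2bc7* was low. *H2bc7* (ENSMUSG00000069268.5, chr13:23573736-23574196) had 2193 and 949 normalized counts in WT, 126 and 164 in *10xPerf*, and 2924 and 2123 in *10xBulge*, and both *10xPerf* libraries lay below all others. It fell by 3.32 ± 0.48 on the log2 scale against WT (limma adjusted p = 0.0201) and was higher by 4.11 ± 0.48 in *10xBulge* than in *10xPerf* (adjusted p = 0.000196). Against WT the call was lost without N1, N3 or N4, at log2 fold changes of -2.71, -3.13 and -3.50 and limma adjusted p values of 0.256, 0.391 and 0.322. In 46.4% of its 100-base stretches *H2bc7* equals other annotated genes, first among them the H2B copies *H2bc8*, *H2bc4* and *H2bc13*. Of these, *H2bc4* had 939 and 461 in WT, 281 and 272 in *10xPerf*, and 1209 and 520 in *10xBulge*, and *H2bc13* had 417 and 265, 776 and 897, and 532 and 399. *H2bc13* was the H2B gene above WT in both *10xPerf* libraries (log2 fold change 1.33 ± 0.42, limma adjusted p = 0.460). With GC trends removed, *H2bc13* was called higher in *10xPerf* (1.84, limma adjusted p = 0.0502). The part of read sharing in these opposite differences was not tested. Since the knock-in lines descend from hybrid embryos and the WT strain is not given, differences between parental copies of these genes and the effect of genotype cannot be told apart, and the H2B sum was at -0.58 ± 0.48 (adjusted p = 0.854).

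*H2bc7* was 1 of 65 histone genes called lower in *10xPerf*, and 0 were called higher, where limma called 0.492% of all genes tested lower and 0.467% higher. An unadjusted p under 0.05 was reached by 6 histone genes, beside 1448 of the 23782 genes tested, with *H2bc7*, *H2bc15* and *H2bc4* lower and *H2bc13*, *H4c9* and *H4c18* higher. Below the threshold, most of the list was low in *10xPerf*: the log2 fold change was under 0 in 55 of 65 genes, with a median of -0.53 beside 0.02 over all genes. This median was -0.15 with GC trends removed, where 40 genes were under 0, -0.24 without N1 and -0.76 without N2. Both *10xPerf* libraries lay below both WT libraries for 35 of the 65 genes, where this held for 19.8% of all genes tested, and above both for 3, where it held for 20.2%. The 3 were *H2bc13*, *H4c9* and *H4c18*, all on chromosome 13. *H4c9* had 1595 and 1208 normalized counts in WT, 2139 and 4642 in *10xPerf*, and 1643 and 1472 in *10xBulge*. *H4c18* had 716 and 731, 1361 and 1559, and 707 and 591. N3 was lower than N4 in most H3 and H4 genes, with median log2 ratios of -0.62 and -0.64.

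**Figure D4:**
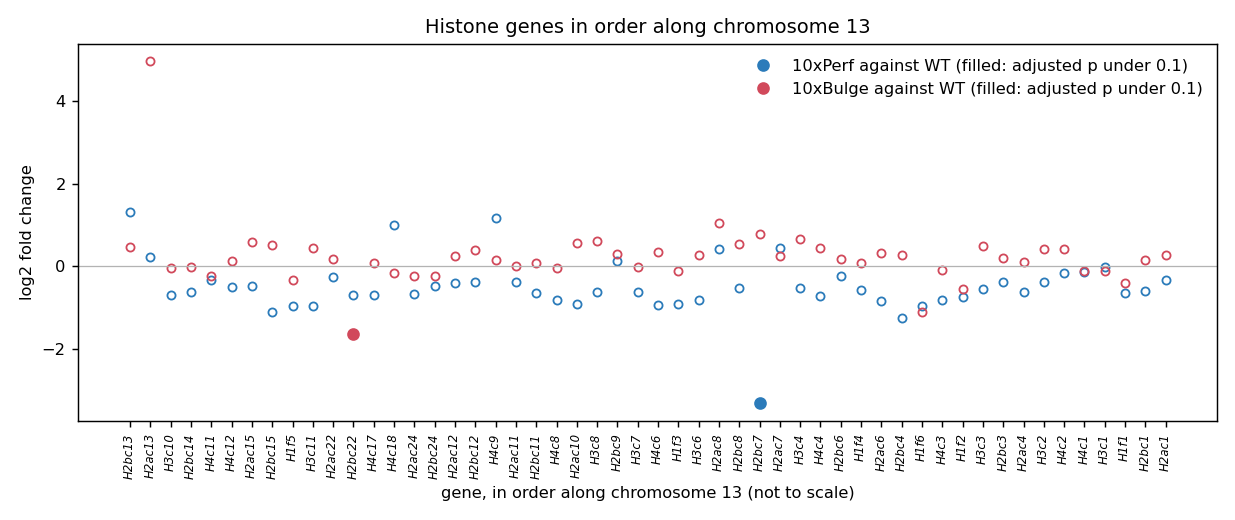
Log2 fold change of the tested histone genes of chromosome 13 in their order on GRCm38 (not to scale), for *10xPerf* (blue) and *10xBulge* (red) against WT, with filled points at a limma adjusted p under 0.1. *H2bc7* in *10xPerf* (-3.32) and *H2bc22* in *10xBulge* (-1.63) are the filled points, and 55 of the 65 tested genes, on all chromosomes, were under 0 in *10xPerf*.

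Between the knock-in lines, 14 of 65 histone genes were higher and 3 lower in *10xBulge* than in *10xPerf*, where limma called 12.9% of all genes tested higher and 24.1% lower. After *H2bc7*, the smallest p values were those of *H2bc15*, *H3c11*, *H4c6* and *H2bc4*. *H2bc15*, a replication-dependent H2B gene, had 195 and 223 normalized counts in *10xPerf*, 643 and 640 in *10xBulge*, and 445 and 457 in WT (log2 fold change 1.62 ± 0.38, limma adjusted p = 0.0124). *H3c11* had 77.6 and 112 in *10xPerf*, 245 and 251 in *10xBulge*, and 208 and 159 in WT (1.40 ± 0.43, limma adjusted p = 0.0398). *H4c6* had 469 and 830, 1429 and 1573, and 1117 and 1261 (1.26 ± 0.42, limma adjusted p = 0.0499), and *H2bc4* was at 1.52 ± 0.53 (adjusted p = 0.0603). In *H2bc15*, *H3c11* and *H4c6*, WT lay between the knock-in lines. The 9 other genes called higher were *H2ac6*, *H2ac10*, *H2bc8*, *H3c3*, *H3c4*, *H3c6*, *H3c8*, *H4c4* and *H4c14*, at log2 fold changes between 1.05 and 1.49. Beside *H1f7* and *H1f9*, *H4c18* was lower, at -1.17 ± 0.37 (limma adjusted p = 0.0449). Both *10xBulge* libraries were above both *10xPerf* libraries for 39 of 65 genes, against 30.7% of all genes tested, and below both for 8, against 35.3%. This comparison and that of *10xPerf* with WT share N3 and N4. The calls were sensitive to single libraries, with fewer histone genes called higher without N1, N2, N3, N4 or N5. A smaller share of all genes tested was called higher in the same runs. The median log2 fold change of the 65 genes was 0.63, and 0.48 without N3, 0.86 without N4, 0.56 without N5 and 0.83 without N6. Without N6, *H1f0*, *H1f1*, *H1f3*, *H1f4* and *H1f5* were also called higher, at log2 fold changes between 1.40 and 1.89. Without N3, *H2bc15*, *H3c11*, *H4c6*, *H2bc4* and *H4c18* missed the threshold, at limma adjusted p values between 0.107 and 0.339. *H2bc4* also missed it without N4 or N5, *H4c6* without N6, and *H4c18* without N4 or N6. By the upper quartile 13 were higher and 6 lower (11.8% and 25.3% of all genes), and by library totals 28 were higher and 3 lower, where 21.6% and 21.7% of all genes were.

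**Figure D5:**
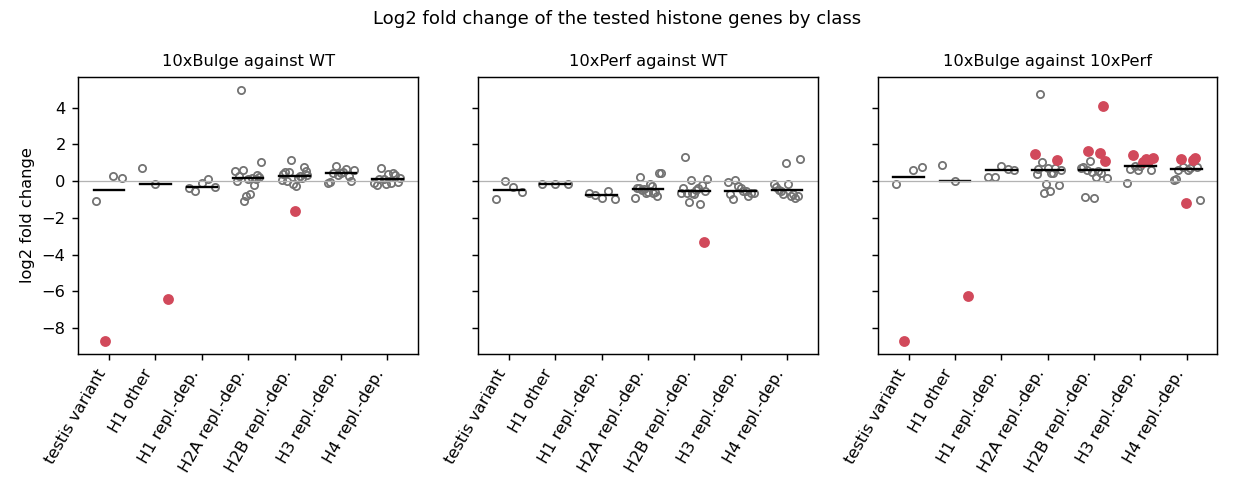
Log2 fold changes of the 65 tested histone genes by class in the 3 comparisons, with genes at a limma adjusted p under 0.1 filled and class medians as lines (repl.-dep., replication-dependent). *H1f7* and *H1f9* are the lowest points in both *10xBulge* panels, and the 14 genes higher in *10xBulge* than in *10xPerf* are all replication-dependent core genes with all 6 libraries, though not without N6.

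*H2ac13* could not be followed as a single copy. It was listed at 0 in N2 and N4, and had 273, 371, 493 and 544 normalized counts in N1, N3, N5 and N6. In 88.4% of its 100-base stretches it equals other annotated genes, first among them H2A copies. No fold is stated for it, and its high points in the plots of log2 fold changes rest on those zeros.

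Genes that supply or load histones were examined alongside. Of 12 genes for histone mRNA synthesis and 3′ end processing, 0 rose and 2 fell in *10xBulge* against WT, a share no larger than the 23% of all genes that were lower. *Slbp*, which binds the stem-loop, had 2358 and 3319 normalized counts in WT, 3231 and 3314 in *10xPerf*, and 5107 and 3896 in *10xBulge* (log2 fold change 0.67 ± 0.39, limma adjusted p = 0.240). *Npat*, which drives transcription of the clusters, was at 0.07 ± 0.51 (limma adjusted p = 0.942). The 2 that fell were *Cstf2*, a cleavage stimulation factor subunit, by 1.91 ± 0.44 (limma adjusted p = 0.0118), and *Sympk*, a scaffold of the processing complex, by 1.89 ± 0.57 (adjusted p = 0.0383). Of 16 histone chaperone genes 2 rose and 1 fell, near or below the 11.4% and 23% of all genes, with *Hira*, the chaperone for H3.3, at 1.41 ± 0.42 (limma adjusted p = 0.0385). Of 17 DNA replication genes 4 rose and 0 fell, where 11.4% of all genes tested rose and 23% fell. Their median was 0.70 beside -0.03 over all genes tested, and *Rrm2*, a ribonucleotide reductase subunit, was at 1.24 ± 0.40 (limma adjusted p = 0.0492). Of 10 spermatogonial markers 1 rose and 1 fell, and of 10 spermatocyte markers 3 fell and 0 rose, near or below the same shares. Markers of somatic cells rose in 6 of 10 (Sertoli cells), 6 of 8 (Leydig cells) and 7 of 8 genes (macrophages), against the same 11.4% of all genes. In *10xPerf* against WT no gene of these lists passed the threshold in limma, and 1, a macrophage marker, had an unadjusted p under 0.05.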

How the data were processed

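Of the series' 26 samples, the 6 testis RNA-seq libraries were analysed, and 20 immunoprecipitation samples are not analysed here. The authors assigned single-end reads of 100 bases to GRCm39 transcripts (Ensembl 104) with salmon and its GC correction, and deposited DESeq2 normalized counts, here treated as a signal because they are not whole numbers of reads. They also deposited their own log2 fold changes and adjusted p-values, not used here.

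Members and lists were chosen with earlier results of these data known. The 23782 genes that reached 10 in 2 or more libraries were fitted as log2(value + 1) with limma 3.58.1 (R 4.3.3) over all 6 libraries, with genotype as the factor and a variance trend with mean level, and called at an adjusted p under 0.1. The procedure was tested on simulated data. Ratios used an exact permutation test (scipy). Named genes are the testis variants, the other H1 genes, the highest copy per class and the 5 smallest p values per direction. Others (*H2bc13*, *H4c9*, *H2ac13*, *Slbp* and *Npat* among them) were named after their values were seen. Sequences and gene coordinates came from GRCm38 (GENCODE genes, RefSeq promoters). Reads were not recovered, so depth is known only from the sums of the values, which limits precision together with 2 animals per genotype. Alternatives were 2 other scalings, 2 filters, other thresholds and pseudocounts (0.1 and 10), pairs of genotypes fitted alone, no variance trend, removal of the GC trend (loess, span 0.3) and leaving out each library.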

Additional observations from a re-analysis of the deposited data

How the results depend on the processing

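*H1f7* and *H1f9* stayed lower in *10xBulge* in every setting run, including the removal of each library. Scaling by library totals gave 11 histone genes higher in *10xBulge* than in WT in place of 0, and 28 higher than in *10xPerf* in place of 14. The upper quartile gave 6 lower than in *10xPerf* in place of 3 and turned the H2B sum to -0.10, the H4 sum to -0.13 (*10xBulge* against WT) and *H1f7* in *10xPerf* to -0.015. With GC trends removed, 7 genes were higher than in WT in *10xBulge* and 1 in *10xPerf* (*H2bc13*), 6 were lower in *10xBulge* than in *10xPerf*, and *H2ac1* in *10xPerf* was at 0.13. The count of 14 was 9 with only the 2 genotypes fitted (12.1% of all genes), 9 without the mean-variance trend (11.1%) and 4 at an adjusted p under 0.05 (7.25%). With the highest single copy as denominator, the ratio differences between *10xBulge* and *10xPerf* were 1.25 for *H2ac1* and 0.029 for *H2bc1*, in place of 0.73 and 0.14 with the class sum.

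Leaving out each library, which leaves its genotype with 1 library assumed to vary like the others and is an added choice for the ratios, gave between 0 and 3 genes higher and 2 and 7 lower in *10xBulge* against WT, 0 and 1 lower in *10xPerf*, and 2 and 14 higher and 2 and 4 lower in *10xBulge* against *10xPerf*. The 7 without N5 added *H1f1*, *H1f2*, *H1f6* and *H2ac18*, and the 3 without N6 were *H1f0*, *H1f4* and *H2bc18*. In the same runs the *10xBulge* against WT value ranged from -1.50 to 0.73 for the H1 sum, -0.52 to 0.595 for the H2B sum, -0.13 to 0.16 for the H4 sum and -0.15 to 0.48 for *H2bc1*, and *H1f7* in *10xPerf* from -0.17 to 0.20. No paired analysis was possible because the genotypes share no library numbers. The causes were not tested. The tallies below cover counts of called genes, ratios, named genes called in the main fit, and testis variants and class sums against WT. Calls gained outside these, such as *H2ac1* and *H2bc1* between the knock-in lines by library totals, are not counted. A count of called genes was kept within a fixed factor of the main count, and a ratio if it moved by less than the spread. Of 397 values under other settings, 381 kept direction and side of the threshold, or stayed within these limits, 11 moved further, 4 reversed and 1 lost its call. Of 258 values without a library, 225 were kept in this way, 8 moved further, 9 reversed, 14 lost a call and 2 gained one.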
